A study of Homo sapiens with 9 samples.

Results

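The transforming growth factor beta (TGF-beta) pathway was followed through 10 genes that cover its ligands (TGFB1, TGFB2, TGFB3 and INHBA), its receptors (TGFBR1 and TGFBR2), the transducer SMAD3 and the inhibitors SMAD6, SMAD7 and SKIL. They were chosen by gene symbol, with earlier results of these data known. All 10 were among the 18430 genes of the deposited expression table and among the 13989 genes that passed the filter on low counts. The libraries come from A375, an established human melanoma cell line with the BRAFV600E genotype, which all 3 groups share. Vemurafenib, a kinase inhibitor directed at mutant BRAF, was given at 10 µM for 3 days (3 libraries), and cisplatin, a DNA crosslinking agent, at 2 µM for 1 day (3 libraries). The drug was then withdrawn and the treated cells were collected at day 7. Untreated A375 cells kept in normal culture were the control (3 libraries), with no collection day given for them in the labels. All cells grew in DMEM with 10% fetal bovine serum, and the libraries were made from total RNA by random-primed RNA-seq. All libraries come from a single line, no vehicle-treated group is among the labels, and the labels do not say whether the 3 libraries of a group came from separate cultures. The p-values therefore measure only the spread between these libraries, which may be technical.

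TGF-beta is secreted bound to its propeptide and is held latent in the matrix until integrins or thrombospondin release it. The active dimer binds the type II receptor TGFBR2, which phosphorylates the type I receptor TGFBR1, and TGFBR1 phosphorylates SMAD2 and SMAD3, which enter the nucleus with SMAD4. Activin A, a dimer of the inhibin beta A chains encoded by INHBA, reaches the same SMADs through activin receptors. SMAD7 blocks the type I receptors, SMAD6 acts mainly on the bone morphogenetic protein (BMP) branch, and SKIL encodes SnoN, a corepressor that binds the activated SMADs. SMAD6, SMAD7 and SKIL are themselves known targets of the pathway. In melanoma, TGF-beta is known for its links with invasion, loss of the pigmented state and tolerance of BRAF inhibitors.

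The sequences before the start sites are shown for 3 members picked by drug and direction. INHBA had the largest fall and TGFB2 the largest rise among the members after vemurafenib, and SMAD6 the largest fall after cisplatin. TGFBR2, with the largest rise among the members after cisplatin, is not shown. Each run holds the 250 bases upstream of a RefSeq start on GRCh38.p14, read 5′ to 3′ on the gene's strand, at chr7:41703091-41703340 (minus strand) for INHBA, chr1:218345086-218345335 (plus strand) for TGFB2 and chr15:66701986-66702235 (plus strand) for SMAD6. Capitals mark matches on either strand to 3 motifs: CAGACA, the core of the CAGA box bound by SMAD3 and SMAD4, GTCTAGA, the palindromic SMAD-binding element less its last base, and TGANTCA, the AP-1 site.
INHBA: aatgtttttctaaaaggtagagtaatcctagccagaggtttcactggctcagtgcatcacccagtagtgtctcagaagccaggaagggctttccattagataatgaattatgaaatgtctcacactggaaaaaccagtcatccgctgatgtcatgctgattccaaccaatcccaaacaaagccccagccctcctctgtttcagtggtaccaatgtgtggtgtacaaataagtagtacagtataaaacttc
TGFB2: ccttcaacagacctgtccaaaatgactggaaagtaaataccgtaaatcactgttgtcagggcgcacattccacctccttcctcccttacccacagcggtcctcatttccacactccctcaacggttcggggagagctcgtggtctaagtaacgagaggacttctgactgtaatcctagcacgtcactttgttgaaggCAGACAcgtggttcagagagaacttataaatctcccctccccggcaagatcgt
SMAD6: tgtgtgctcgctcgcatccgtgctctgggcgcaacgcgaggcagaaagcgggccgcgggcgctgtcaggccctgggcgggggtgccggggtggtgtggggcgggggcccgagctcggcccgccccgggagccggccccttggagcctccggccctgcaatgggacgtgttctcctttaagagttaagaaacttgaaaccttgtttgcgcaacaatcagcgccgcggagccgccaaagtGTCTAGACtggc
TGFB2 held CAGACA at position -53, and SMAD6 held GTCTAGA at positions -12 and -11 on opposite strands, where the overlapping matches form 1 palindrome. INHBA had no match upstream and CAGACA at position 28 after its start. All 10 members matched RefSeq promoter windows, 25 in all and 300 bases long each, of which 5 held CAGACA, 2 held TGANTCA and 1 held GTCTAGA. Over 35116 windows of that length, 16.9% held CAGACA, 7.71% held TGANTCA and 1.44% held GTCTAGA. These matches describe the letters only.

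The libraries held 14481020 to 16038475 estimated counts each. SOX10, a transcription factor of the melanocyte lineage, averaged 804 TPM (transcript counts scaled for gene length and library total) after vemurafenib, 610.1 TPM after cisplatin and 730.4 TPM in the control, while the pigment genes MLANA and TYR stayed at or below 0.453 TPM in every group mean. The pigment gene DCT averaged 125 TPM after vemurafenib, 0.32 TPM after cisplatin and 0.043 TPM in the control, and S100B, another lineage marker, 584 TPM after vemurafenib, 300.1 TPM after cisplatin and 30.6 TPM in the control. All 10 lineage markers were above 0 in each group, with summed levels of 1566 to 1735 TPM after vemurafenib, 1007 to 1085 TPM after cisplatin and 774 to 855 TPM in the control. Vemurafenib replicate 1 stood apart from the other 2 vemurafenib libraries, its deviation from the group mean following gene length across 13511 genes (rank correlation -0.613, where genes are not independent replicates). Calls of the 10 members that change without this library are given with and without it. The vemurafenib and the cisplatin comparison with the control share the same 3 control libraries.

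After vemurafenib, 8 of the 10 members passed the test: TGFB2, TGFB3 and TGFBR2 rose, and INHBA, TGFBR1, SMAD3, SMAD7 and SKIL fell (edgeR's quasi-likelihood test, Benjamini-Hochberg adjusted p under 0.05 over all 13989 genes). Of all genes tested, 44.9% passed, 22% as rises and 22.9% as falls. Scaling by total counts alone moved that split to 3972 rises and 2646 falls, against 3082 and 3200 with edgeR's TMM scaling, and put the median log2 change of all genes at 0.11, against 0.01 with TMM. The counts of members called in this comparison were the same under it. The libraries of the groups did not overlap for 8 members, against 52.8% of all genes, and 5 members were called with a log2 change of at least 1 in size (INHBA, SKIL, SMAD3, SMAD7 and TGFB2), against 17% of all genes. The median size of the log2 change was 0.96 among the members and 0.38 among all genes tested. After cisplatin, TGFB3 and TGFBR2 rose, TGFBR1, SMAD3, SMAD6 and SMAD7 fell and 4 members did not pass, where 46.3% of all genes passed (22.7% as rises and 23.5% as falls). For 7 members the libraries did not overlap, against 67% of all genes, and SMAD6 was the 1 member called with a log2 change of at least 1, against 17.3% of all genes. The median size was 0.57 among the members and 0.40 among all genes. Between the drugs, TGFB2 and SMAD6 were higher and INHBA, SMAD3, SMAD7 and SKIL lower after vemurafenib than after cisplatin, where 43.7% of all genes passed (23% higher and 20.8% lower). The drugs' libraries did not overlap for 6 members, against 54% of all genes, and 4 members (INHBA, SKIL, SMAD6 and TGFB2) were called with a log2 change of at least 1, against 17.4% of all genes. In bulk RNA, fewer cells that express a gene and less of its RNA in each cell cannot be told apart.

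**Figure D1:**
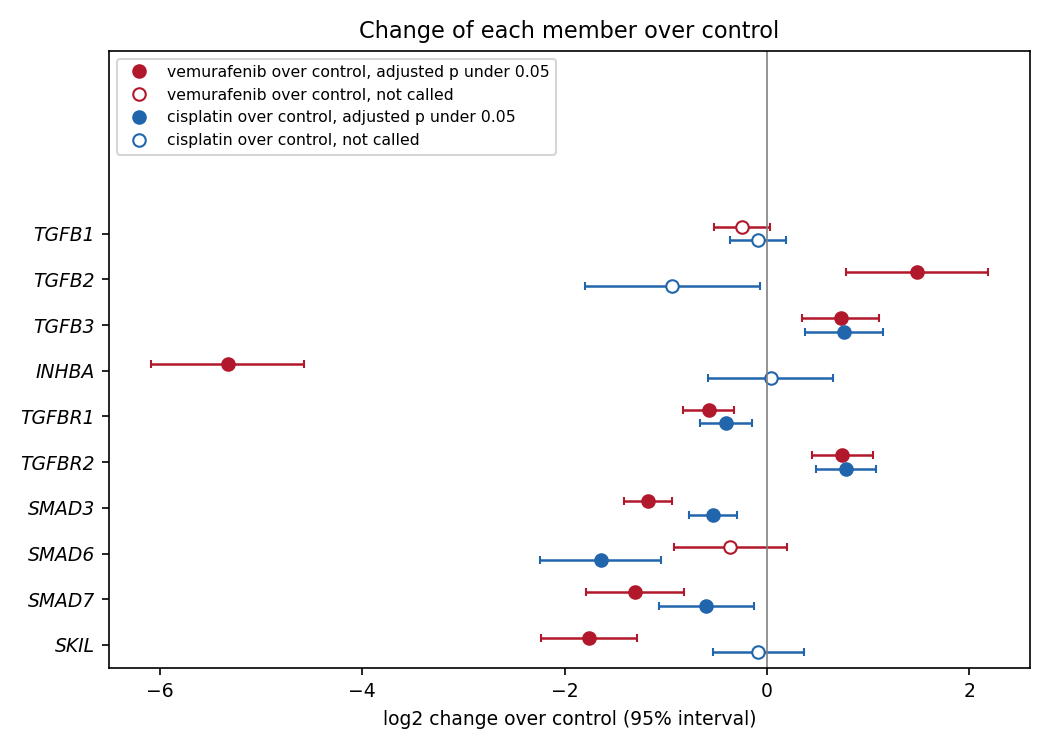
Change of each member over control on the log2 scale, for vemurafenib (red) and cisplatin (blue). Points are edgeR estimates with 95% intervals, filled where the adjusted p was under 0.05. INHBA at -5.33 after vemurafenib lies far to the left of the other members, and its cisplatin estimate is 0.03.

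INHBA (chr7:41685114-41705406, gene identifier 3624, gene positions being those of RefSeq on GRCh38.p14) changed most among the members after vemurafenib. It had 17.3, 30.1 and 50.4 CPM (counts scaled to a common library total, with TMM factors) in the vemurafenib libraries, 1494, 1483 and 1057 CPM in the cisplatin libraries and 1217, 1516 and 1206 CPM in the control libraries. All 3 vemurafenib libraries were far below the other 6, and the cisplatin and control libraries overlapped. The fall after vemurafenib was 40.2-fold (log2 change -5.33, SE 0.35, adjusted p = 4.7e-07 by edgeR), the 27th lowest log2 change of the 13989 genes. Against cisplatin the vemurafenib libraries were 41.2-fold lower (log2 change -5.37, SE 0.35, adjusted p = 3.09e-07). Without vemurafenib replicate 1, the lowest library, the log2 change over control was -5.03. After cisplatin the log2 change was 0.03, with a 95% interval from -0.59 to 0.66, so an INHBA difference of up to about that size in either direction was not resolved. The vemurafenib libraries spread widely around their mean, with a coefficient of variation of 51.3%, against 18.5% after cisplatin and 13.4% in the control, and rested on 266 to 824 estimated counts per library.

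The 3 TGF-beta genes behaved differently from one another. TGFB1 (chr19:41330323-41353922), which encodes the most widely expressed isoform, had 185, 134 and 148 CPM in the vemurafenib libraries, 161, 170.1 and 189.7 CPM in the cisplatin libraries and 184, 176 and 196 CPM in the control libraries. The groups overlapped, with vemurafenib replicate 1 among the control values and the other 2 vemurafenib libraries below all other libraries. The log2 change over control was -0.25 after vemurafenib (95% interval -0.53 to 0.03, adjusted p = 0.127) and -0.09 after cisplatin (-0.37 to 0.18, adjusted p = 0.573, both by edgeR). Without vemurafenib replicate 1 TGFB1 was called lower, at -0.39 against control (adjusted p = 0.00292) and -0.30 against cisplatin (adjusted p = 0.0149). Over all alternatives the adjusted p ranged from 0.00292 to 0.37 against control and from 0.0149 to 0.663 against cisplatin.

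TGFB2 (chr1:218345336-218444619), the isoform with the least RNA here, had 2.54, 4.55 and 3.86 CPM in the vemurafenib libraries, 0.415, 0.814 and 0.799 CPM in the cisplatin libraries and 0.913, 1.26 and 1.73 CPM in the control libraries. No pair of groups overlapped, with vemurafenib highest and cisplatin lowest. It rose 2.79-fold after vemurafenib (log2 change 1.48, SE 0.32, adjusted p = 0.00285 by edgeR). Against cisplatin the vemurafenib level was 5.34-fold higher (log2 change 2.42, SE 0.36, adjusted p = 0.000199). After cisplatin the log2 change over control was -0.94 (SE 0.39), which missed the threshold at an adjusted p of 0.072. That estimate rested on 6 to 12 estimated counts per cisplatin library and 14 to 27 per control library, and it passed without vemurafenib replicate 1 (adjusted p = 0.0395) and when only the cisplatin and control groups were fitted (adjusted p = 0.0438, all alternatives between 0.0247 and 0.321).

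TGFB3 (chr14:75958097-75983011), the third isoform, had 5.53, 5.36 and 5.45 CPM in the vemurafenib libraries, 4.71, 5.97 and 5.99 CPM in the cisplatin libraries and 3.13, 3.32 and 3.40 CPM in the control libraries. Every library of either drug was above every control library. The log2 change was 0.73 after vemurafenib (SE 0.17, adjusted p = 0.00523) and 0.76 after cisplatin (SE 0.18, adjusted p = 0.00405, both by edgeR). The 2 drugs did not separate, with a log2 difference of -0.03 for vemurafenib over cisplatin and a 95% interval from -0.40 to 0.34.

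**Figure D2:**
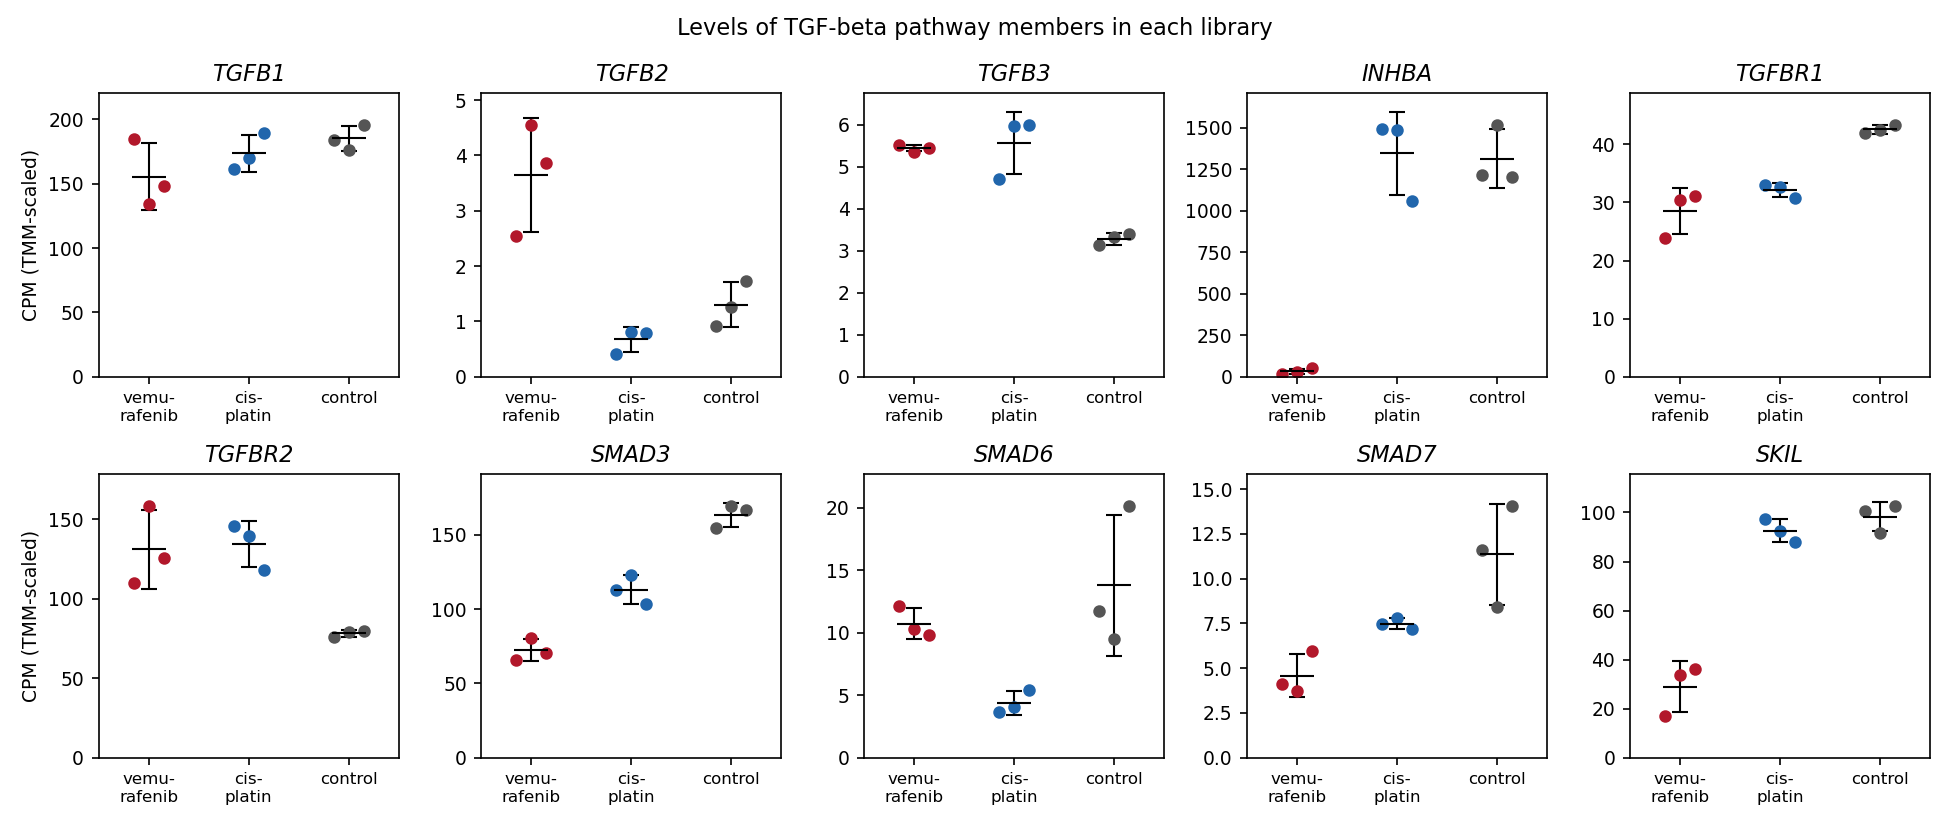
TMM-scaled CPM of the 10 members in each of the 9 libraries, with vemurafenib on the left, cisplatin in the middle and control on the right of each panel. Points are libraries, bars the mean and SD of 3, and each panel has its own axis from 0. INHBA and SKIL are low in the 3 vemurafenib libraries, and TGFB3 and TGFBR2 are above control in all 6 drug libraries.

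Per length, TGFB1 supplied nearly all TGF-beta RNA. Its share of the summed TPM of the 3 isoforms was 96.8% ± 0.77 after vemurafenib, 97.7% ± 0.20 after cisplatin and 98.5% ± 0.14 in the control (SD, n = 3 each). TGFB2 took 0.931% ± 0.399 after vemurafenib, 0.149% ± 0.043 after cisplatin and 0.277% ± 0.079 in the control. For TGFB3 the share was 2.31% ± 0.37 after vemurafenib, 2.17% ± 0.16 after cisplatin and 1.22% ± 0.07 in the control. For each drug against the control, each of these shares gave p = 0.1 in a two-sided exact permutation test, the smallest p that 3 libraries against 3 allow, so the design could not reach 0.05. Between the drugs the exact permutation p was 0.2 for TGFB1, 0.1 for TGFB2 and 0.6 for TGFB3.

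The receptors moved in opposite directions. TGFBR2 (chr3:30606356-30694142), the type II receptor, had 109.6, 158 and 125 CPM in the vemurafenib libraries, 146, 139 and 118 CPM in the cisplatin libraries and 75.8, 79.0 and 80.0 CPM in the control libraries. All 6 drug libraries were above all 3 control libraries, and the drugs overlapped. The log2 change was 0.74 after vemurafenib (SE 0.14, adjusted p = 0.00102) and 0.78 after cisplatin (SE 0.14, adjusted p = 0.000731, both by edgeR). For vemurafenib over cisplatin it was -0.04, with a 95% interval from -0.33 to 0.26.

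TGFBR1 (chr9:99103647-99154192), the type I receptor, had 23.9, 30.5 and 31.1 CPM in the vemurafenib libraries, 33.0, 32.7 and 30.8 CPM in the cisplatin libraries and 41.9, 42.5 and 43.3 CPM in the control libraries. Every drug library was below every control library. The log2 change was -0.58 after vemurafenib (SE 0.12, adjusted p = 0.00185) and -0.41 after cisplatin (SE 0.12, adjusted p = 0.0138, both by edgeR), and the drugs differed by -0.17 with a 95% interval from -0.43 to 0.08. With limma on log2(TPM + 1) neither passed (adjusted p = 0.0587 after vemurafenib and 0.19 after cisplatin, all alternatives between 3.48e-05 and 0.0587 and between 0.000374 and 0.193), and the cisplatin call was also lost without cisplatin replicate 3 (adjusted p = 0.0562).

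Within each library, TGFBR2 held 6.70 ± 0.84 times the TPM of TGFBR1 after vemurafenib, 6.05 ± 0.41 times after cisplatin and 2.66 ± 0.03 times in the control (SD, n = 3 each). The drug and control libraries did not overlap in this ratio. The two-sided exact permutation p was 0.1 for each drug against control, the smallest possible, and 0.3 between the drugs.

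SMAD3 (chr15:67065602-67195169), the receptor-activated SMAD that binds DNA, fell after both drugs. It had 66.0, 80.4 and 70.4 CPM in the vemurafenib libraries, 113, 123 and 103 CPM in the cisplatin libraries and 154, 169 and 167 CPM in the control libraries. The 3 groups did not overlap, with vemurafenib lowest and control highest. The fall was 2.26-fold after vemurafenib (log2 change -1.18, SE 0.11, adjusted p = 6.59e-06) and 1.45-fold after cisplatin (log2 change -0.53, SE 0.11, adjusted p = 0.00192, both by edgeR). For vemurafenib over cisplatin the log2 change was -0.65 (SE 0.11, adjusted p = 0.000568).

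The inhibitors did not move as a group. SKIL (chr3:170357715-170396849), the gene of the corepressor SnoN, had 17.1, 33.7 and 36.1 CPM in the vemurafenib libraries, 97.5, 92.3 and 88.0 CPM in the cisplatin libraries and 101, 91.4 and 103 CPM in the control libraries. The vemurafenib libraries lay below all others, and the cisplatin and control libraries overlapped. SKIL fell 3.39-fold after vemurafenib (log2 change -1.76, SE 0.22, adjusted p = 5.26e-05 by edgeR) and was 3.19-fold lower than after cisplatin (log2 change -1.67, SE 0.22, adjusted p = 7.1e-05). Without vemurafenib replicate 1, its lowest library, the log2 change over control was -1.49. After cisplatin it was -0.09, with a 95% interval from -0.54 to 0.37.

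SMAD7 (chr18:48919853-48950965), the inhibitory SMAD of both branches, had 4.10, 3.74 and 5.94 CPM in the vemurafenib libraries, 7.48, 7.80 and 7.19 CPM in the cisplatin libraries and 11.6, 8.43 and 14.1 CPM in the control libraries. The 3 groups did not overlap, although cisplatin replicate 2 and control replicate 2 were close. It fell 2.47-fold after vemurafenib (log2 change -1.31, SE 0.22, adjusted p = 0.000594 by edgeR). After cisplatin the log2 change was -0.60 (SE 0.22, adjusted p = 0.0384), and for vemurafenib over cisplatin it was -0.70 (SE 0.23, adjusted p = 0.0257). Both of these calls were fragile. The cisplatin call was lost without any one of control replicates 1 and 3 and cisplatin replicates 1, 2 and 3 (adjusted p = 0.0912, 0.181, 0.0902, 0.0815 and 0.103), and with total-count scaling (0.0619) and limma on log2(TPM + 1) (0.165), all alternatives between 0.0133 and 0.185. The call between the drugs was lost without vemurafenib replicate 1 or 2 or cisplatin replicate 1, 2 or 3 (adjusted p = 0.0516, 0.0784, 0.0601, 0.0747 and 0.0512, all alternatives between 0.00695 and 0.0784).

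SMAD6 (chr15:66702236-66782849), whose upstream sequence carries the palindromic match shown above, had 12.2, 10.3 and 9.79 CPM in the vemurafenib libraries, 3.67, 4.07 and 5.46 CPM in the cisplatin libraries and 11.7, 9.49 and 20.2 CPM in the control libraries. The cisplatin libraries lay below all others, and the vemurafenib and control libraries overlapped. SMAD6 fell 3.13-fold after cisplatin (log2 change -1.65, SE 0.27, adjusted p = 0.000472 by edgeR). Against cisplatin the vemurafenib level was 2.44-fold higher (log2 change 1.28, SE 0.27, adjusted p = 0.00271). Over control the vemurafenib estimate was -0.36, with a 95% interval from -0.92 to 0.19. Control replicate 3 alone lay above all 6 drug libraries, the vemurafenib estimate without it was 0.002, and the coefficient of variation among control libraries was 40.8%.

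The order of the members by level per length differed between the groups. After vemurafenib the order of mean TPM was TGFB1 at 138, TGFBR2 at 61.4, SMAD3 at 24.7, INHBA at 11.4, SKIL at 10.8, TGFBR1 at 9.17, SMAD6 at 5.78, SMAD7 at 4.10, TGFB3 at 3.27 and TGFB2 at 1.30. Among neighbours in that order, INHBA and SKIL, SKIL and TGFBR1, SMAD6 and SMAD7, and SMAD7 and TGFB3 overlapped between libraries. After cisplatin INHBA led at 450.2 TPM, followed by TGFB1 at 151, TGFBR2 at 60.9, SMAD3 at 37.5, SKIL at 35.0, TGFBR1 at 10.1, SMAD7 at 6.29, TGFB3 at 3.37, SMAD6 at 2.40 and TGFB2 at 0.233. There, SMAD3 and SKIL, and TGFB3 and SMAD6, overlapped. The control order was INHBA at 417 TPM, TGFB1 at 150.5, SMAD3 at 51.5, SKIL at 33.7, TGFBR2 at 33.4, TGFBR1 at 12.6, SMAD7 at 8.86, SMAD6 at 6.76, TGFB3 at 1.87 and TGFB2 at 0.427, with overlaps between SKIL and TGFBR2 and between SMAD7 and SMAD6.

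**Figure D3:**
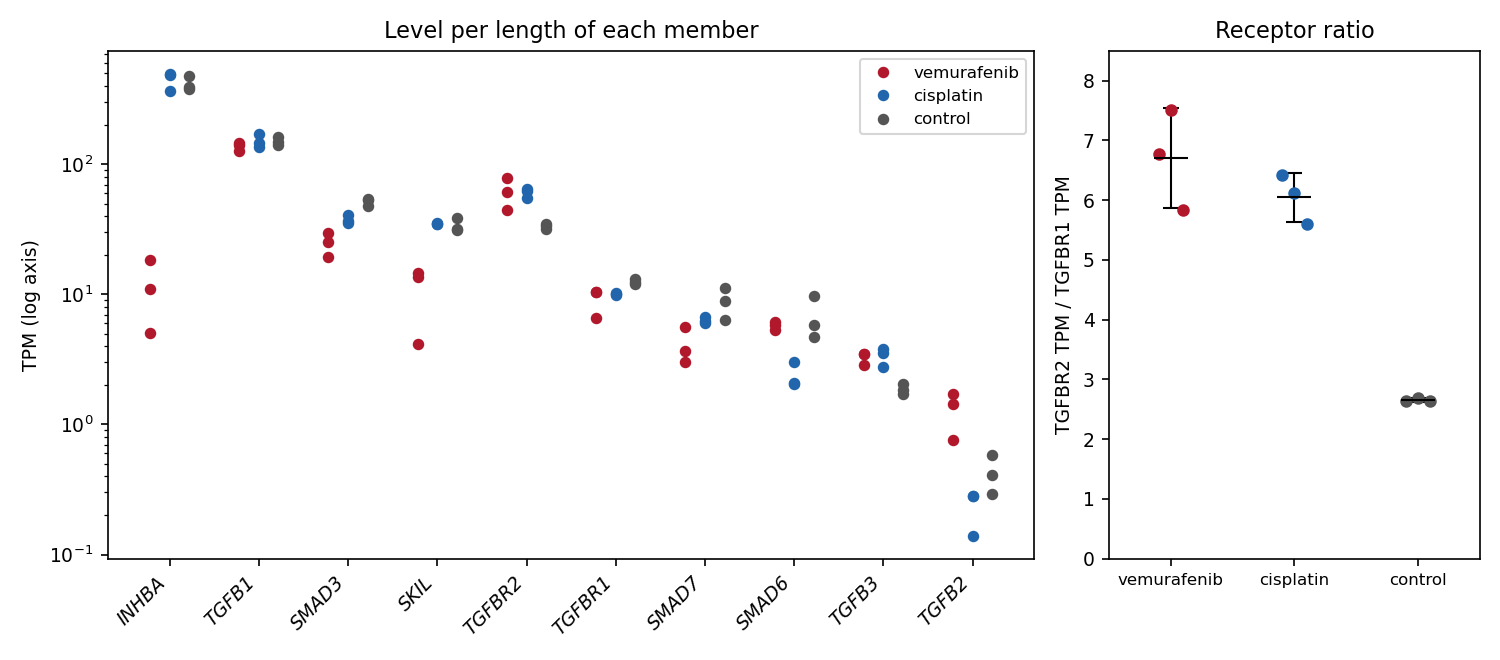
Left, TPM of each member in each library on a log axis, ordered by the control mean, with vemurafenib (red), cisplatin (blue) and control (grey) side by side. Right, the ratio of TGFBR2 to TGFBR1 TPM per library with the mean and SD of 3, where the 6 drug libraries lie above the 3 control libraries (means 6.70, 6.05 and 2.66).

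The other genes of the pathway were followed in 6 lists, also chosen with earlier results of these data known. Of the 31 tested genes known as TGF-beta or activin targets, 4 rose and 19 fell after vemurafenib (median log2 change -0.71, against 0.01 over all genes, of which 22% rose and 22.9% fell). IL11, a cytokine, averaged 7.09 ± 2.92 CPM after vemurafenib and 111 ± 11.2 CPM in the control (log2 change -3.96, SE 0.26, adjusted p = 4.55e-07). ZEB2 and SNAI2, transcription factors of the mesenchymal and neural crest states, were the largest rises that met the naming rule: ZEB2 averaged 209 ± 60.5 CPM after vemurafenib and 30.3 ± 2.71 CPM in the control (log2 change 2.79, SE 0.19, adjusted p = 5.62e-07), and SNAI2 rose by 1.45 (SE 0.21, adjusted p = 0.000177, all by edgeR).

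After cisplatin, 5 of the same 31 targets rose and 18 fell (median log2 change -0.73, against 0.00 over all genes, of which 22.7% rose and 23.5% fell). LOXL2, a lysyl oxidase that crosslinks collagen, averaged 17.5 ± 4.27 CPM after cisplatin and 220.3 ± 27.5 CPM in the control (log2 change -3.65, SE 0.22, adjusted p = 1.95e-07 by edgeR). FN1, the gene of fibronectin, averaged 128 ± 11.3 CPM after cisplatin and 1130 ± 247 CPM in the control. TIMP1, a metalloprotease inhibitor, averaged 9143 ± 1392 CPM after cisplatin and 1336 ± 227 CPM in the control, and ACTA2, the gene of smooth muscle actin, rose by 2.34 (SE 0.16, adjusted p = 5.04e-07 by edgeR). Between the drugs, 13 of the 31 targets were higher and 13 lower after vemurafenib, where 23% of all genes were higher and 20.8% lower. FN1 was higher after vemurafenib by a log2 change of 2.55 (SE 0.21, adjusted p = 1.7e-06), and TIMP1 lower, with a log2 change of -3.94 (SE 0.22, adjusted p = 9.16e-08). The target list says which genes respond to the pathway in some cells, and many of them also answer to other signals.

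Of the 27 other SMADs and intracellular regulators, 0 rose and 10 fell after vemurafenib by edgeR (median log2 change -0.21), where 22% of all genes rose and 22.9% fell. At an unadjusted p under 0.05, 1 of the regulators rose, and limma on log2(TPM + 1) called 1 rise and DESeq2 0. The deepest falls were PMEPA1, an inhibitor that the pathway itself induces, which averaged 234 ± 17.8 CPM after vemurafenib and 1032 ± 114 CPM in the control (log2 change -2.14, SE 0.12, adjusted p = 1.5e-07), and SMURF2, a ubiquitin ligase for SMADs and receptors, at -1.64 (SE 0.13, adjusted p = 1.55e-06). The count of rises depended on single libraries, with 1 without control replicate 3 and 4 without vemurafenib replicate 1. Those fits called 2378 and 3716 of all genes as rises, against 3082 with all libraries. Without vemurafenib replicate 1, SMAD1, ZFYVE9, ZFYVE16 and RNF111 were called as rises, at log2 changes of 0.43, 0.29, 0.55 and 0.26, and with the replicate number as a block SMAD1 alone was (log2 change 0.38, adjusted p = 0.0445). After cisplatin 1 of the 27 rose and 3 fell, where 22.7% of all genes rose and 23.5% fell. Among the falls were TGIF2, a corepressor, at -1.52 (SE 0.14, adjusted p = 7.04e-06) and SMURF2 at -1.17 (SE 0.12, adjusted p = 1.79e-05). Without vemurafenib replicate 1 the counts of rises and falls after cisplatin were 3 and 9, and without control replicate 2 or 3 the rise was lost. The fit without vemurafenib replicate 1 called 4220 rises and 4422 falls over all genes, against 3181 and 3290 with all libraries. SMAD2 and SMAD4 were called lower after cisplatin, at -0.23 and -0.22, without vemurafenib replicate 1. Between the drugs 5 were higher and 10 lower after vemurafenib, where 23% of all genes were higher and 20.8% lower. TGIF2 stood at 1.55 and PMEPA1 at -2.02 (adjusted p = 5.2e-06 and 1.27e-07, all by edgeR). The 5 became 10 without vemurafenib replicate 1 and 2 or 3 without any one cisplatin library. Over all genes, 3755 were higher without vemurafenib replicate 1, against 3214 with all libraries. Without cisplatin replicates 1, 2 and 3 the higher genes numbered 2626, 2433 and 2570.

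Among the 22 tested genes of latency, activation and extracellular inhibition, 4 rose and 9 fell after vemurafenib (median log2 change -0.29), where 22% of all genes rose and 22.9% fell. THBS1, the gene of thrombospondin-1, which can release latent TGF-beta, averaged 1012 ± 191 CPM after vemurafenib and 229 ± 29.1 CPM in the control (log2 change 2.14, SE 0.19, adjusted p = 3.66e-06). ITGB3, the beta-3 integrin chain, averaged 59.8 ± 25.0 CPM after vemurafenib and 653 ± 36.2 CPM in the control (log2 change -3.45, SE 0.28, adjusted p = 2.2e-06, both by edgeR). After cisplatin 3 rose and 6 fell, where 22.7% of all genes rose and 23.5% fell, and 3 fell without control replicate 2 and 9 without vemurafenib replicate 1 (4 rises). Over all genes, 2774 fell without control replicate 2 and 4422 without vemurafenib replicate 1 (4220 rises), against 3290 with all libraries (3181 rises). LTBP3, a latent TGF-beta binding protein, rose by 0.94 after cisplatin (SE 0.12, adjusted p = 6.63e-05) and averaged 1473 ± 62.9 CPM after cisplatin and 767 ± 58.3 CPM in the control. FSTL1, a follistatin-like secreted protein, fell by 1.78 on the log2 scale after cisplatin (SE 0.14, adjusted p = 2.06e-06), and ITGB3 fell by 0.96 (SE 0.25, adjusted p = 0.00896, all by edgeR). Between the drugs 3 were higher and 8 lower after vemurafenib, where 23% of all genes were higher and 20.8% lower. THBS1 stood at 2.61 and ITGB3 at -2.49 (adjusted p = 7.62e-07 and 1.76e-05 by edgeR).

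Of the 13 other receptors tested, 2 rose and 4 fell after vemurafenib, and 2 rose and 4 fell after cisplatin, where 22% of all genes rose and 22.9% fell after vemurafenib and 22.7% rose and 23.5% fell after cisplatin, so the counts lie near those of all genes. Without vemurafenib replicate 1, 3 rose and 6 fell after cisplatin. Over all genes that fit called 4220 rises and 4422 falls, against 3181 and 3290 with all libraries. Rises after vemurafenib numbered 1 without control replicate 1 or 3 or vemurafenib replicate 2, and rises after cisplatin 1 without control replicate 1 or 3 or cisplatin replicate 3. ENG, the gene of the coreceptor endoglin, averaged 178 ± 35.4 CPM after vemurafenib and 86.1 ± 6.34 CPM in the control (log2 change 1.05, SE 0.14, adjusted p = 8.61e-05). BMPR2, the BMP type II receptor, averaged 31.7 ± 10.7 CPM after vemurafenib and 65.9 ± 5.79 CPM in the control (log2 change -1.06, SE 0.21, adjusted p = 0.00146). BAMBI, a pseudoreceptor that blocks type I receptors, fell by 1.08 on the log2 scale after cisplatin (SE 0.13, adjusted p = 5.18e-05, all by edgeR). TGFBR3, the coreceptor betaglycan, was 1.49 higher after vemurafenib than after cisplatin (SE 0.24, adjusted p = 0.000432), and its fall of 0.90 on the log2 scale after cisplatin (adjusted p = 0.0111) was lost without cisplatin replicate 2 (adjusted p = 0.0527, both by edgeR) and with limma on log2(TPM + 1) or log2(TPM + 0.1) (adjusted p = 0.0936 and 0.0764).

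**Figure D4:**
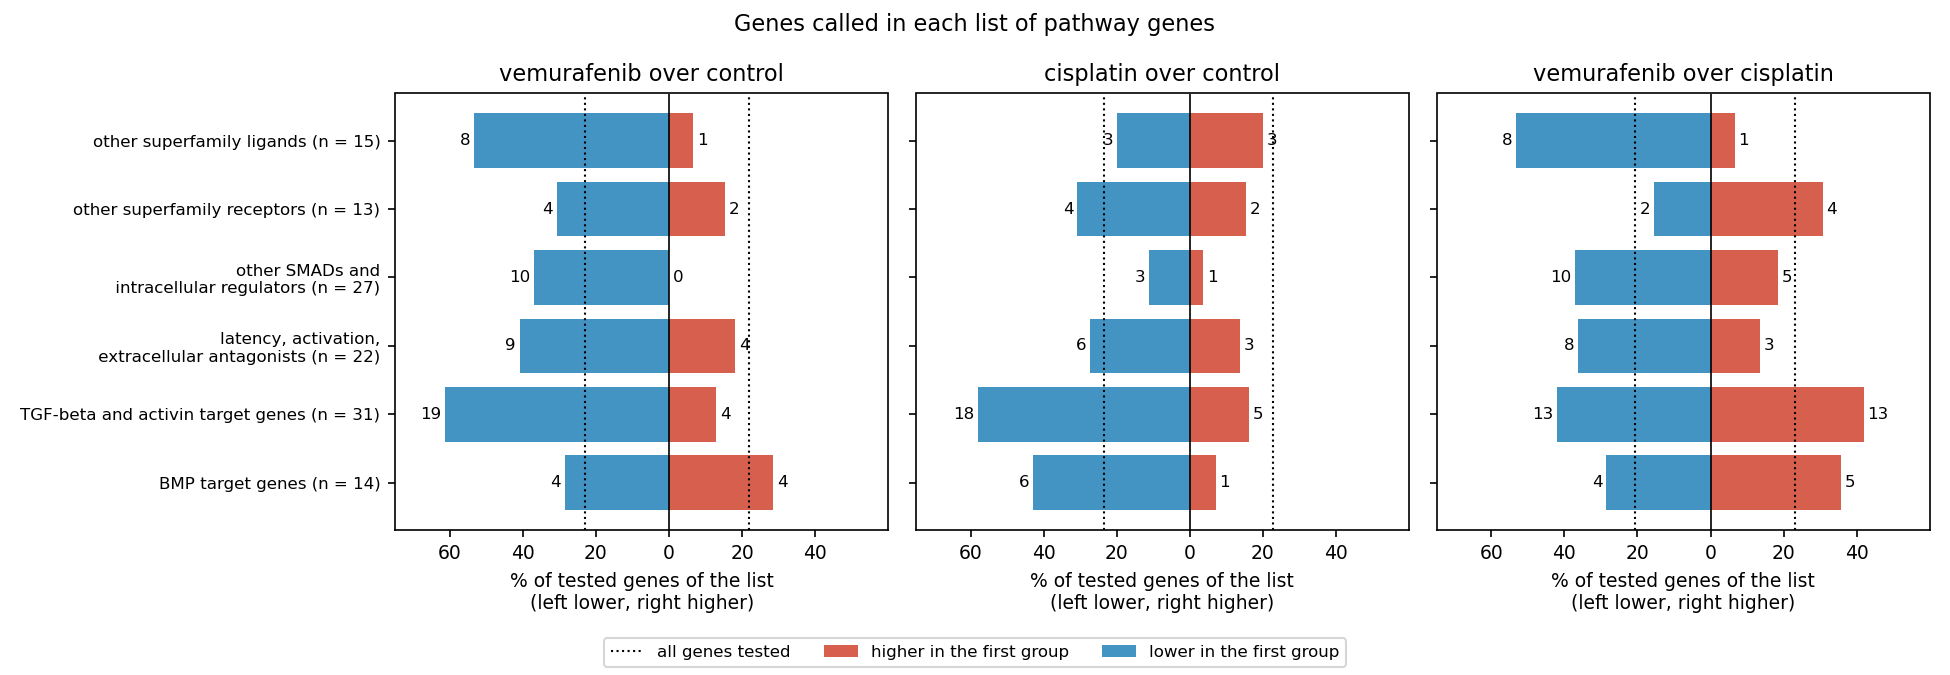
Share of the tested genes of each pathway list called higher (red, right) or lower (blue, left) in the first-named group of each comparison, with the number of genes beside each bar. Dotted lines mark the share of all genes tested, such as 22% and 22.9% for vemurafenib over control. The target list has 19 of 31 genes lower after vemurafenib and 18 of 31 lower after cisplatin.

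Fibroblast markers, from cells that also express many of the target genes, had summed levels of 20.5 to 34.7 TPM after vemurafenib, 12.0 to 27.3 TPM after cisplatin and 8.52 to 12.1 TPM in the control, with all 6 markers above 0 in each group. LUM averaged 13.2 TPM after vemurafenib, 13.2 TPM after cisplatin and 2.98 TPM in the control, and COL3A1 stayed at or below 0.527 TPM in every group mean. In the same order, POSTN averaged 5.91, 0.293 and 0.173 TPM and DCN 2.91, 2.18 and 0.85 TPM. PDGFRB averaged 6.41 TPM after vemurafenib, 1.83 TPM after cisplatin and 4.83 TPM in the control, and FAP stayed at or below 0.777 TPM. Summed blood markers were 102 to 150 TPM after vemurafenib, 233 to 281 TPM after cisplatin and 87.2 to 126 TPM in the control. Nearly all of that was CD68, while PTPRC and CD3E stayed at or below 0.133 TPM and were at 0 in the control, and of 4 markers 4 were above 0 after vemurafenib, 3 after cisplatin and 1 in the control. Endothelial markers summed to 2.71 to 10.5 TPM after vemurafenib, 18.9 to 21.4 TPM after cisplatin and 5.98 to 7.96 TPM in the control, mostly KDR, with 3, 4 and 3 of 4 markers above 0 and CDH5 at or below 0.01 TPM. PECAM1 averaged 0.037 TPM after vemurafenib, 0.947 TPM after cisplatin and 1.56 TPM in the control. Keratinocyte markers summed to 17.6 to 21.8 TPM after vemurafenib, 18.8 to 21.7 TPM after cisplatin and 17.9 to 21.4 TPM in the control, mostly KRT10, with 4, 5 and 4 of 5 markers above 0. KRT10 averaged 18.3 TPM after vemurafenib, 19.2 TPM after cisplatin and 14.2 TPM in the control. KRT14 went the other way, with 0.603, 0.633 and 5.53 TPM in that order. The part of these shifts, and of the lineage markers above, in the changes of the members and their lists was not tested.

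Genes whose pattern over the 9 libraries came closest to a member were found by the root mean square difference of centred log2 CPM, among 11914 genes. For INHBA these were ATP6V0A4, SIRPB1 and IGFBP3 (differences 0.39, 0.40 and 0.46, where INHBA itself varied by 2.60 around its mean). ATP6V0A4 had log2 changes of -6.24 after vemurafenib and -0.24 after cisplatin. The closest to SKIL were CD109, N4BP2 and DOCK5 (0.11, 0.14 and 0.14, against 0.88 for SKIL itself). For TGFB2 they were ARHGEF10, NID1 and KIRREL1 (0.14, 0.21 and 0.23, against 0.80), and ARHGEF10 had log2 changes of 1.42 after vemurafenib and -0.55 after cisplatin. SMAD3 lay closest to TBL1X, EPB41L1 and KLF10 (0.11, 0.12 and 0.12, against 0.49). SMAD6 lay closest to FOXD1, TCOF1 and DBF4B (0.25, 0.26 and 0.26, against 0.71), and SMAD7 to PLXNA1, SH2D4A and SGK1 (0.16, 0.18 and 0.19, against 0.55). The members with small variation had closer neighbours, with RNF13, KATNAL2 and GDAP1 for TGFBR2 (0.09 each, against 0.38), SIRT1, DIAPH1 and GTF2I for TGFBR1 (0.06, 0.07 and 0.07, against 0.26), and PWWP3A, LZTR1 and NAAA for TGFB3 (0.07, 0.08 and 0.08, against 0.33).

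Overlapping annotation limits 4 of the members. For overlaps on the opposite strand, the sources used here do not say whether strand was used in counting. In GENCODE v29, TGFB1 shares 6.64% of its exon bases with HNRNPUL1, TGFB3 3.32% with TGFB3-AS1 and SMAD3 2.00% with AC087482.1, each on the opposite strand. TGFB2 shares 26.6% with TGFB2-OT1 on its own strand, which counting by strand would not separate. Of these overlapping genes only HNRNPUL1 was among the genes of the deposited expression table.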

How the data were processed

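RNA-seq of 9 A375 libraries in 3 groups of 3 was analysed from 1 deposited table of 18430 genes (18153 identifiers matched RefSeq). The submitters' processing notes name HISAT2 2.0.4 and hg38, and the tool that counted reads is not given in the sources used here. Deposited by the authors were estimated counts, of which 13.6% to 14.1% per library were not whole numbers (tolerance 1e-06), so they were rounded here. TPM, also deposited by the authors, served to compare genes. FPKM, deposited by the authors, served only to derive effective lengths.

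Counts were filtered with filterByExpr, TMM-scaled and fitted over all 9 libraries by group means with edgeR 4.0.16 (R 4.3.3; quasi-likelihood F test, two-sided, 6 residual degrees of freedom, biological coefficient of variation 0.139), with Benjamini-Hochberg adjustment over 13989 genes and a threshold of 0.05. The intervals cover 95%. DESeq2 1.42.0 and limma 3.58.1 were alternatives. The other alternatives were another scaling or filter, the compared groups alone, the replicate block, length-trend offsets and each library left out. The code was tested on simulated data. No 2 libraries of a group agreed within sampling noise.

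Named list genes were, per list and comparison, up to 2 rises and 2 falls by log2 change among called genes averaging at least 50 counts in the higher group. Neighbours are the 3 closest genes with at least 50 counts on average, for members called in at least 2 comparisons; their CPM carried a pseudocount of 0.5. Some of the genes this rule names are not reported here. Genes shown in the text outside that rule were chosen after their values were seen. The members and lists were chosen with earlier results of these data known.

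The labels give replicate numbers in each group but no shared culture or day. Same-numbered vemurafenib and control libraries deviated together (correlations 0.199, 0.154 and 0.211). The main fit had no replicate term, so estimates and p-values are unpaired except where the replicate block is named. That block was an alternative fit, run for every comparison. Protein sequences were not used here.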

Additional observations from a re-analysis of the deposited data

How the results depend on the processing

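Over 20 alternatives for each of the 30 member changes, 571 of 600 values stayed on their side of the threshold, 20 lost a call, 9 gained one and 0 called values turned direction. The 20 losses were in SMAD7 after cisplatin and between the drugs, and in TGFBR1 after either drug. The 9 gains were in TGFB1 after vemurafenib (adjusted p = 0.0234 with length-trend offsets, 0.0189 with these and the replicate block) and against cisplatin, and in TGFB2 after cisplatin. The count of members lower after cisplatin was 4, and 2 with limma on log2(TPM + 1) or log2(TPM + 0.1) and without cisplatin replicate 3. These fits called 2680, 2651 and 2716 of all genes lower, against 3290 in the main fit. Leaving out each library gave 3 higher and 5 to 6 lower members after vemurafenib, 2 higher and 2 to 5 lower after cisplatin, and 2 higher and 3 to 4 lower for vemurafenib over cisplatin. Calls over all genes moved as well, from 2378 to 3716 higher and 2661 to 3956 lower after vemurafenib. After cisplatin they ranged from 2556 to 4220 higher and 2665 to 4422 lower. For vemurafenib over cisplatin the ranges were 2433 to 3755 higher and 2334 to 3402 lower. With CPM in place of TPM the isoform shares were 94.341%, 96.542% and 97.586% for TGFB1 after vemurafenib, after cisplatin and in the control, 2.308%, 0.372% and 0.682% for TGFB2, and 3.35%, 3.086% and 1.732% for TGFB3; CPM takes no account of length. TGFB2 changes shrink with a pseudocount, to 0.67 after vemurafenib and 0.88 over cisplatin with log2(TPM + 1).

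With the replicate number as a block, the members called after vemurafenib stayed at 3 higher and 5 lower. For cisplatin, the same-numbered correlations were 0.26, 0.071 and 0.13 with control, and 0.182, -0.004 and 0.128 with vemurafenib. In these comparisons not every library correlated best with its own number. The block gave 2 higher and 5 lower after cisplatin, TGFB2 included (adjusted p = 0.0259 by edgeR), and 2 higher and 4 lower between the drugs. All genes called under the block numbered 3195 higher and 3348 lower after vemurafenib. After cisplatin they numbered 3369 higher and 3488 lower, and between the drugs 3346 higher and 3096 lower. Of 720 list counts, 652 stayed within 1.5 times. With only the cisplatin and control groups fitted, 8 intracellular regulators were lower after cisplatin. That fit called 4325 of all genes lower, against 3290 in the main fit. Depth limits TGFB2 most, with 6 to 12 counts per cisplatin library.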

Other observations

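The list of other superfamily ligands had 15 tested genes, BMPs among them, and also counts BMP1, which is no ligand. Of the 15, 1 rose and 8 fell after vemurafenib, and 3 rose and 3 fell after cisplatin (edgeR, adjusted p under 0.05). After cisplatin 1 rose without control replicate 1 or 2 or cisplatin replicate 3. Of all genes, 22% rose and 22.9% fell after vemurafenib, and 22.7% rose and 23.5% fell after cisplatin. BMP8B averaged 4.73 ± 0.89 CPM after vemurafenib, 18.8 ± 2.95 CPM after cisplatin and 47.8 ± 2.17 CPM in the control (SD, n = 3 each), a log2 change over control of -3.34 after vemurafenib (adjusted p = 9.94e-08) and -1.35 after cisplatin (adjusted p = 2.47e-05). BMP7, a ligand of the BMP receptors, averaged 0.812 ± 0.264 CPM after vemurafenib and 7.07 ± 0.49 CPM in the control (log2 change -3.10, SE 0.24, adjusted p = 1.48e-06). BMP6 averaged 3.81 ± 0.31 CPM after vemurafenib and 35.8 ± 13.2 CPM after cisplatin (log2 change -3.23, SE 0.26, adjusted p = 1.51e-06). BMP1, a procollagen protease and no BMP ligand despite its name, rose by 0.75 after vemurafenib (SE 0.11, adjusted p = 0.000176) and by 0.63 after cisplatin (SE 0.11, adjusted p = 0.000645, all by edgeR). It was the single rise after vemurafenib. With the replicate block GDF11 rose too (log2 change 0.33, adjusted p = 0.0258 by edgeR). Without vemurafenib replicate 1 there were 3 rises, and 3716 over all genes, against 3082 with all libraries.

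Of 14 BMP target genes tested, 4 rose and 4 fell after vemurafenib, where 22% of all genes rose and 22.9% fell, so these counts lie near those of all genes. After cisplatin 1 rose and 6 fell, where 22.7% of all genes rose and 23.5% fell. Rises after cisplatin numbered 2 without control replicate 3, vemurafenib replicate 1 or 3 or cisplatin replicate 3, and falls 3 without cisplatin replicate 3. ATOH8, a transcription factor, averaged 40.9 ± 9.15 CPM after vemurafenib, 2.23 ± 0.61 CPM after cisplatin and 6.94 ± 1.58 CPM in the control, a log2 change over control of 2.56 after vemurafenib (adjusted p = 3.62e-06) and -1.63 after cisplatin (adjusted p = 0.000411, both by edgeR). HEY1, a transcription factor also known as a Notch target, rose by 1.10 after vemurafenib (SE 0.16, adjusted p = 0.000201), and ID4, an inhibitor of DNA binding, rose by 1.39 after cisplatin (SE 0.20, adjusted p = 0.000206, both by edgeR).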
